A study of Mus musculus with 6 samples.

Results

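In 11 genes of mouse embryonic stem cells knocked out for 3 DNA methyltransferases, the estimated mix of transcripts met a rule for a difference between culture in 2i and culture in serum. They are not equally well measured: at Slc25a51 and Bag1 most of the difference lies between overlapping transcript models, and at Zbtb18 it rests on very few counts. At Rps24 and Atg14 the transcript that loses share has no splice junction of its own and few or no bases of its own. The 11 are the protein-coding genes with a summed level of at least 10 TPM (a level corrected for transcript length and for the depth of the library) in every library and with a transcript whose mean share of the gene's TPM lay at least 30 percentage points apart between the media, with no overlap between the libraries of the media. Of 21836 protein-coding genes with a transcript in the files, 6915 reached the level, and 6322 of these had 2 or more transcripts. The 11 genes are 0.159% of the 6915. Because the measured shares chose these genes, their shares are given as a description, with no test; 10 of the 11 genes are described singly.

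The libraries came from poly(A)-selected RNA of TKO cells, a line with knockouts of Dnmt1, Dnmt3a and Dnmt3b that was derived from male J1 (129S4/SvJae) embryonic stem cells. The TKO-2i group, 3 libraries, was grown for 14 days in N2B27 medium with the MEK inhibitor PD0325901 at 1 µM, the GSK3 beta inhibitor CHIR99021 at 3 µM and LIF at 1000 U/ml. The TKO-serum group, 3 libraries, was grown in DMEM with 15% FCS and LIF at 500 U/ml, so that basal medium, inhibitors, serum and LIF dose differ together and cannot be told apart. Both groups carry the same knockouts, and no library of cells with the methyltransferases was compared here. The labels call the replicates biological, all of them are of the same line, and the shares of RNA from mixed cells are averages over a culture. Total estimated counts were 46228700, 44180642 and 43896549 in TKO-2i replicates 1 to 3 and 38274042, 51932739 and 44827609 in TKO-serum replicates 1 to 3.

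The markers of embryonic stem cells were abundant in every library. Pou5f1, a core pluripotency factor, stood at 1057, 982 and 1012 TPM in TKO-2i and at 1249, 1249 and 1253 TPM in TKO-serum. Nanog, another pluripotency factor, stood at 515, 512 and 455 TPM in TKO-2i and at 334, 363 and 332 TPM in TKO-serum. Of the 6 markers on the list, Nanog and Esrrb were higher in TKO-2i, Sox2 and Zfp42 were lower, and Pou5f1 and Dppa5a did not pass the gene-level test, which is the quasi-likelihood test of edgeR at 0.05 after adjustment by Benjamini-Hochberg.

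Markers of other states were low but moved with the medium. Over all genes tested 62.5% passed, 31.9% higher and 30.6% lower in TKO-2i. The counts of markers, here and above, are to be read beside these shares. The 3 markers of primed epiblast (Otx2 the most abundant) summed to 4.63, 4.89 and 4.43 TPM in TKO-2i and to 38.4, 41.1 and 38.8 TPM in TKO-serum, and all 3 were lower in TKO-2i. The 4 markers of primitive endoderm (Gata4 the most abundant) summed to 4.53, 5.37 and 4.22 TPM in TKO-2i and to 8.01, 9.20 and 10.4 TPM in TKO-serum, with 3 lower in TKO-2i and 1 not past the threshold. These levels are small beside those of the pluripotency factors, and the groups do not overlap in either sum. The 3 trophoblast markers summed to 4.004, 2.96 and 4.52 TPM in TKO-2i, nearly all of it Cdx2, and to 1.32, 1.15 and 1.07 TPM in TKO-serum, with 1 higher, 1 lower and 1 not past the threshold. The study's methods say that lines other than the wild-type J1 cells were grown without feeders, on gelatin. The 5 fibroblast markers (Thy1 the most abundant) summed to 4.06, 4.77 and 4.53 TPM in TKO-2i and to 5.51, 6.22 and 5.77 TPM in TKO-serum, with Col1a2 and Thy1 lower in TKO-2i, Col1a1 not past the threshold, and Col3a1 and Postn too low to test. In bulk samples, fewer cells of a type and less RNA per cell cannot be told apart, and neither can a culture of cells that all use both transcripts and a mixture of cells that use different ones. The part of these cell states in the transcript shares was not tested.

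The mRNAs of the knocked-out genes were still counted. Dnmt3a stood at 4.30, 5.19 and 4.54 TPM in TKO-2i and at 21.3, 23.0 and 22.7 TPM in TKO-serum. Dnmt3b stood at 6.71, 9.53 and 8.49 TPM in TKO-2i and at 18.8, 20.9 and 20.7 TPM in TKO-serum, and Dnmt1 at 29.1, 34.6 and 29.3 TPM in TKO-2i and 25.7, 28.6 and 27.9 TPM in TKO-serum. The level of an mRNA does not show whether it encodes a working enzyme, so these values are no check on the knockout.

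A gene can make different transcripts in several ways. Alternative promoters give different first exons, which can move the start codon or leave the protein as it is and exchange only the leader of the mRNA. Alternative splicing can include or skip an exon or retain an intron, and alternative last exons or cleavage sites give different 3′ ends. Splicing is steered by RNA-binding proteins such as the SR proteins and hnRNPs, and by tissue-restricted regulators such as the ESRP, MBNL, RBFOX and ELAVL families.

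For each of the 11 genes, the transcript that gained the most share in TKO-2i and the transcript that lost the most are compared. In 7 genes both of these met the rule, and in 4 genes only 1 did, so that 18 transcripts met it in all. In 8 genes the gaining transcript was the more abundant of the pair in TKO-2i and the other the more abundant in TKO-serum, a swap of the leading transcript. Shares that do not overlap between the groups are common at smaller size: 3964 of the 6915 genes, 57.3%, had at least 1 transcript without overlap. Among the genes with 2 or more transcripts, the largest share difference of a gene had a median of 3.54 percentage points and a 95th percentile of 12.9. The 11 genes had a median of 10 annotated transcripts, beside 6 for all 6915.

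**Figure D1:**
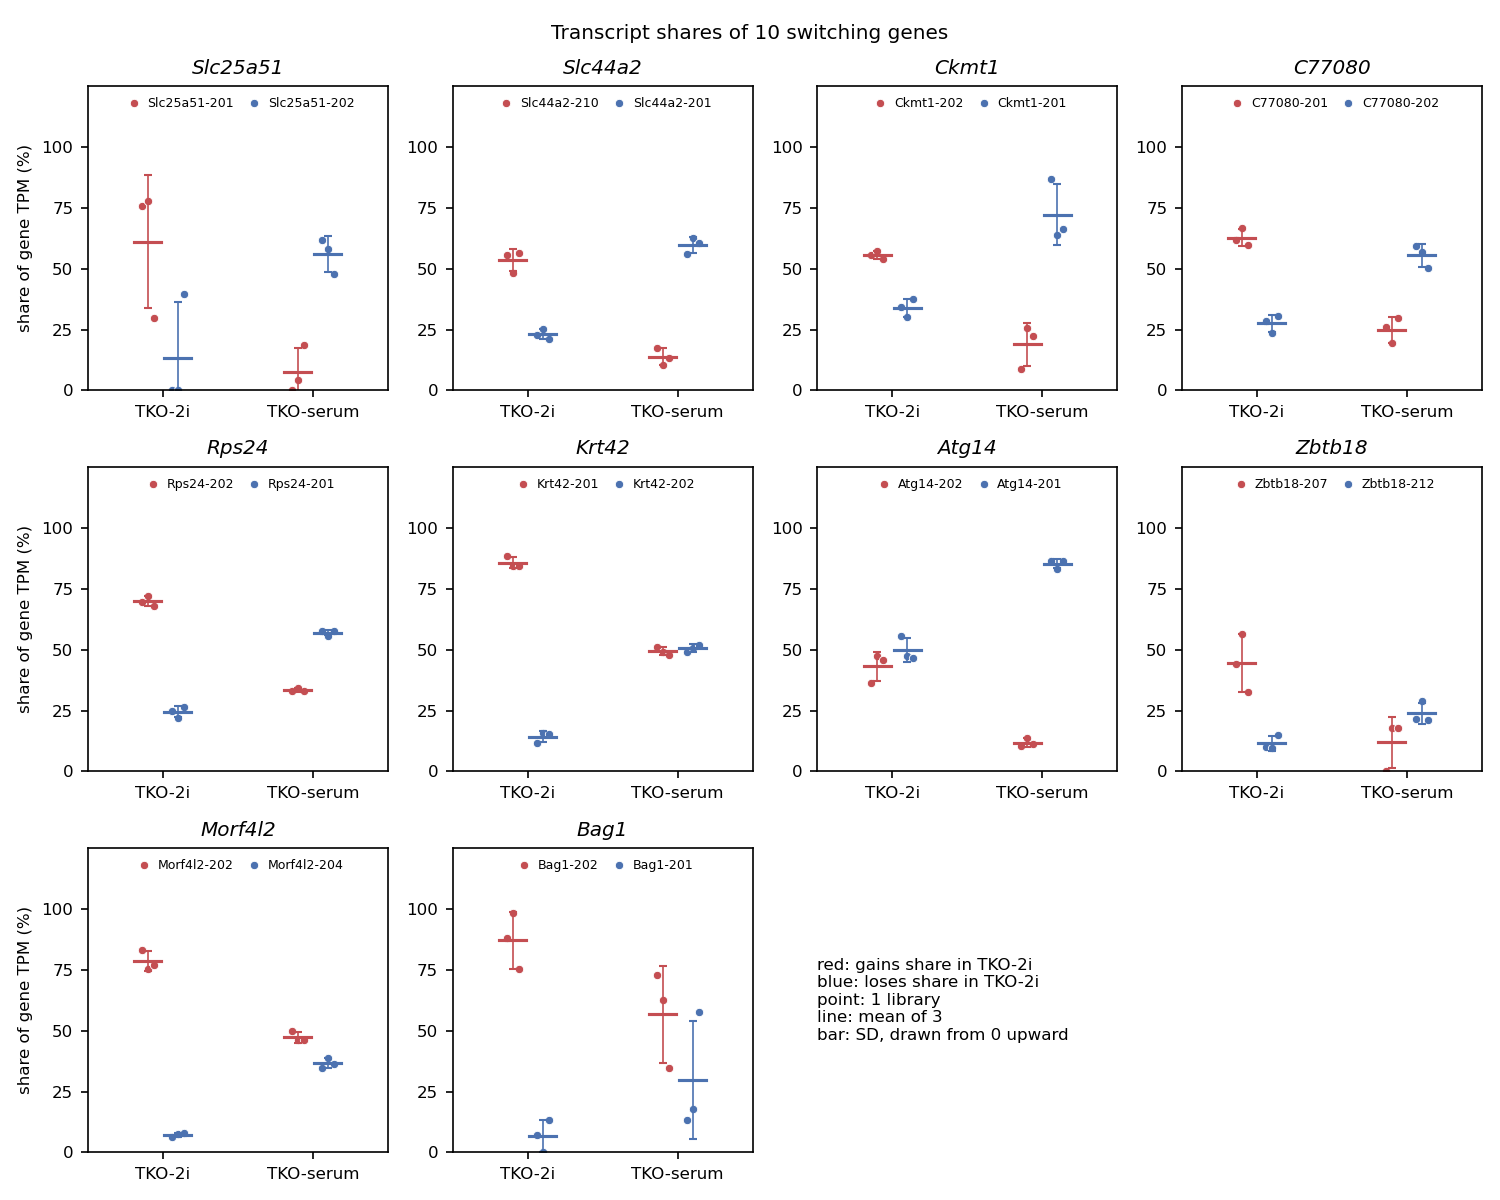
Share of the gene's TPM (%) taken by the transcript that gains share in TKO-2i (red) and the transcript that loses it (blue), for 10 of the genes, with 1 point per library, the mean of 3 libraries as a line and the SD as a bar drawn from 0 upward. In Slc44a2, C77080, Rps24, Krt42 and Morf4l2 the points of a group lie close together and far from those of the other group, whereas in Slc25a51, Zbtb18 and Bag1 they spread widely within a group.

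A share can move because the transcript itself changes or because the rest of the gene does, so the level of each transcript was read beside its share. The gaining transcript had a higher TPM in every TKO-2i library than in any TKO-serum library in all 11 genes, beside 21.7% (5122) of the 23658 transcripts with a mean of at least 1 TPM in the 6915 genes. The losing transcript had a lower TPM in every TKO-2i library in 6 genes (among them Slc25a51, Slc44a2, Rps24, Krt42 and Morf4l2), beside 20% (4731) of those transcripts. In the other 5 genes (Ckmt1, C77080, Atg14, Zbtb18 and Bag1) the TPM of the losing transcript overlapped between the groups. In 6 genes both transcripts thus separate the media, in opposite directions, and in 5 genes only the gaining transcript does. The rule used the same libraries, so nothing is read from these counts against the background.

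**Figure D2:**
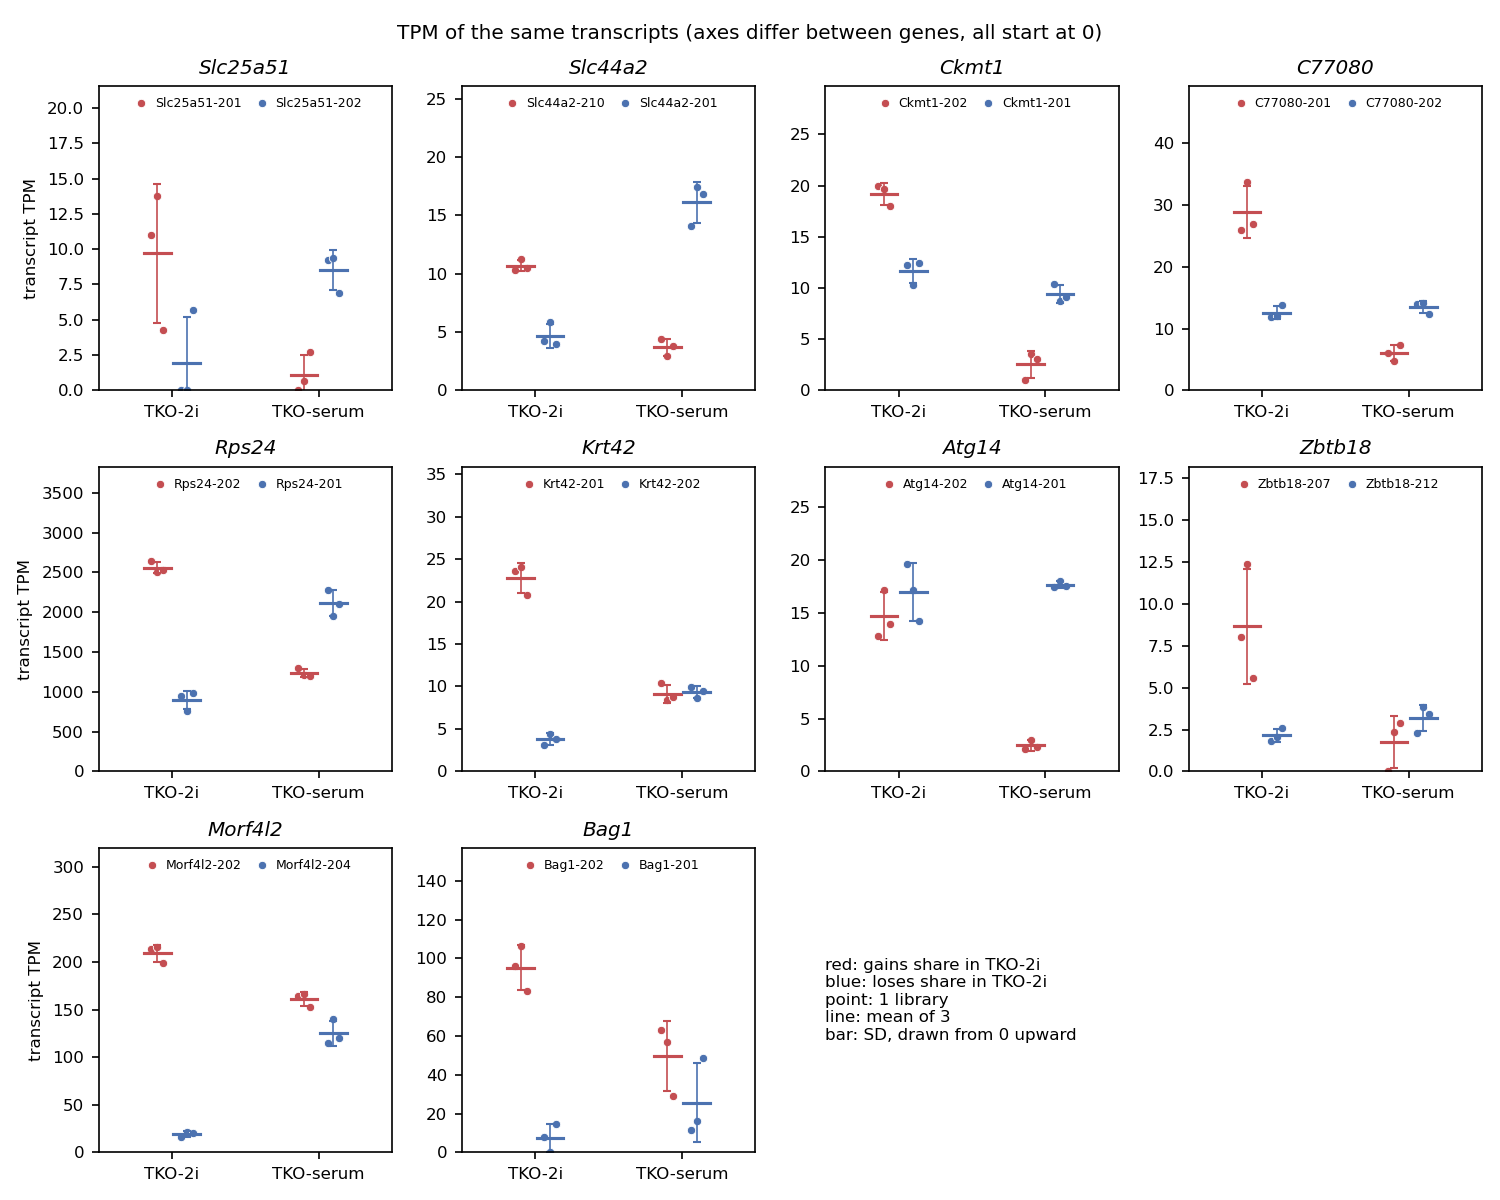
TPM of the same transcripts as in the plot of shares, with 1 point per library, the mean as a line and the SD as a bar, and with an axis for each gene that starts at 0. The red transcript is higher in every TKO-2i library in each gene drawn, and the blue transcripts of Ckmt1, C77080, Atg14, Zbtb18 and Bag1 overlap between the groups.

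By the annotation, transcript starts lay more than 100 bases apart in 8 of the 11 pairs (72.7%), beside 3736 of 6311 (59.2%) for the pair of most abundant transcripts in the other genes. Starts were alike and ends differed in 1 pair (9.09%), beside 26.4% in the other genes, and 2 pairs (18.2%) differed in neither, beside 14.4%. With a distance of 500 bases the counts became 7 with different starts, 0 with different ends alone and 4 with neither, beside 42.3%, 32.7% and 25.1% of the other pairs. Both transcripts were annotated as coding in 9 of the 11 genes (81.8%), beside 57.9% of the other pairs. In 4 genes (Ckmt1, Atg14, Rps24 and Morf4l2) both carried the same coding sequence (36.4%), beside 10.1% of the other pairs, so the exchange there concerns untranslated sequence. With transcripts of the same coding sequence summed, these 4 genes no longer met the rule and the other 7 did. With only 11 genes these shares are a description, and no test was made of them.

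**Figure D3:**
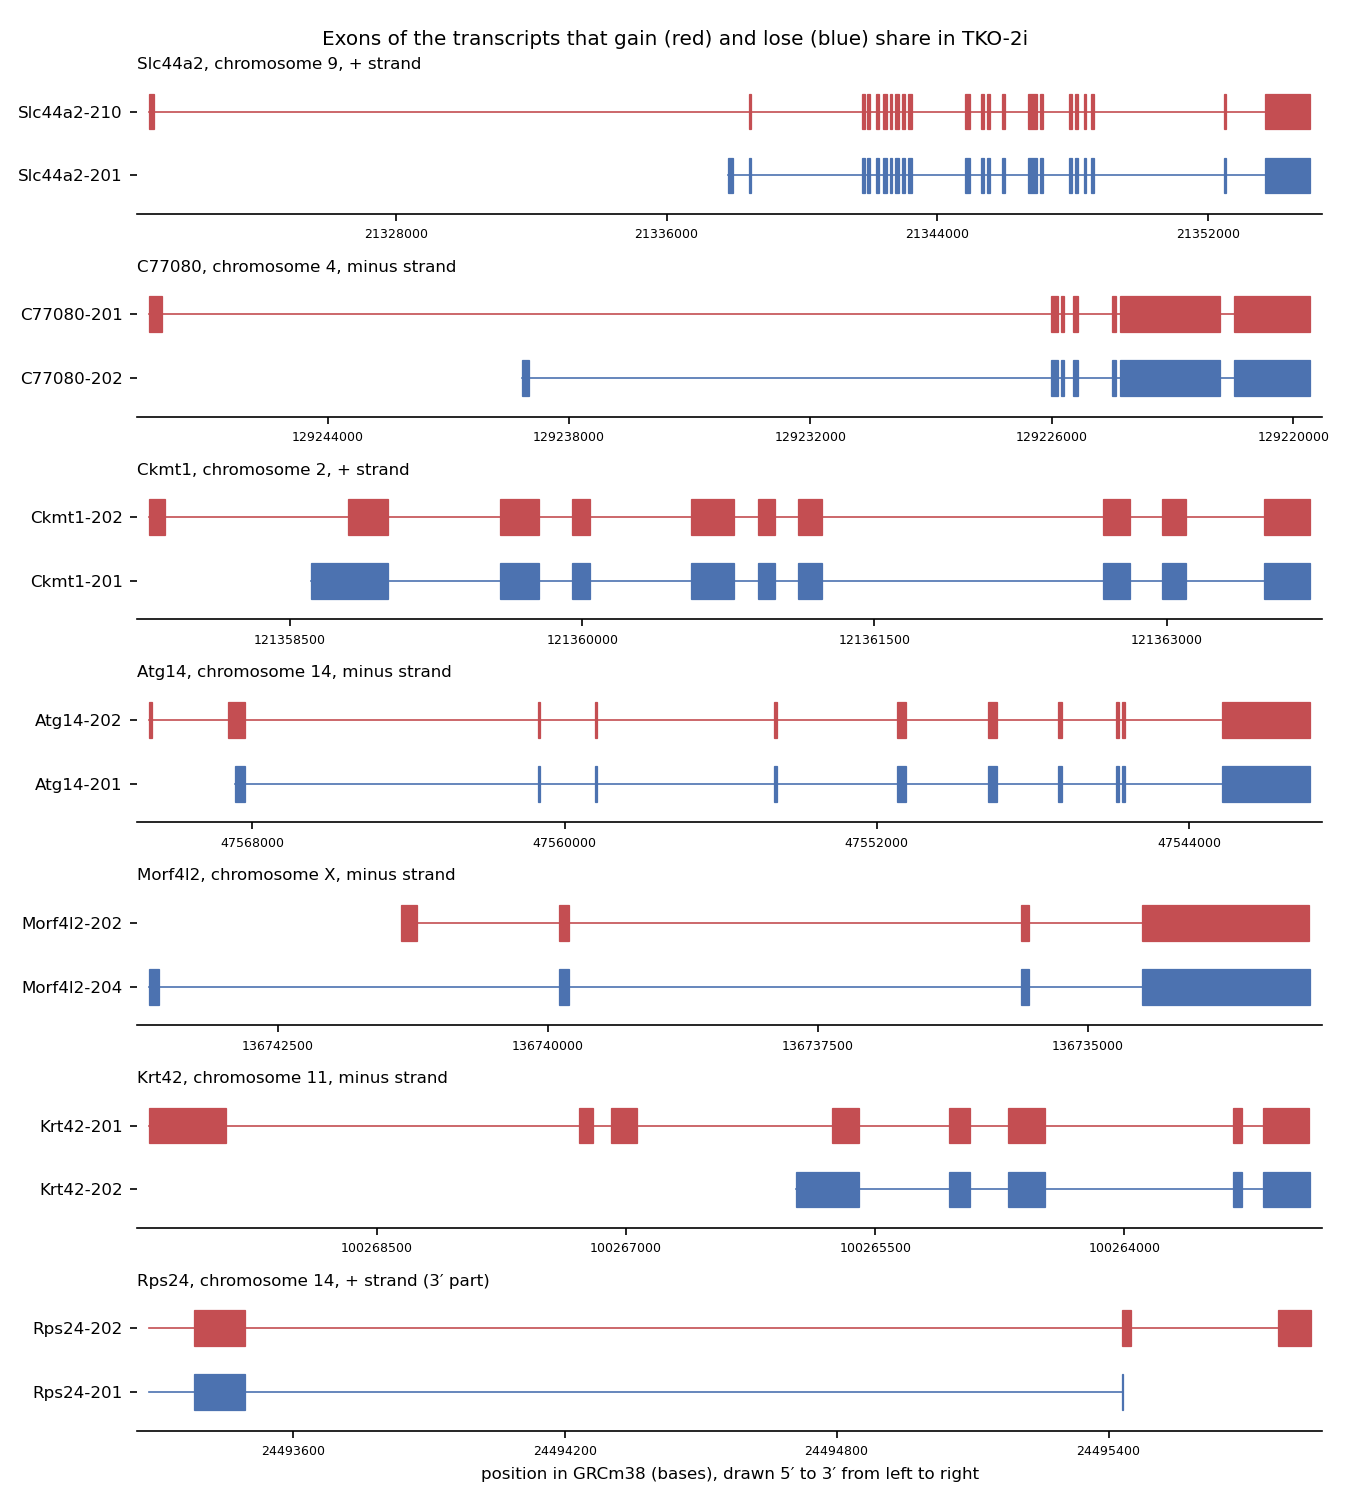
Exons (boxes) of the gaining transcript (red) and the losing transcript (blue) for 7 of the genes, drawn to scale in GRCm38 from 5′ to 3′, with position in bases on each axis. The first exons differ in Slc44a2, C77080, Ckmt1, Atg14, Morf4l2 and Krt42, and the last exons differ in Rps24.

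Slc44a2 (ENSMUSG00000057193, chr9:21320698-21355028, plus strand) encodes a choline transporter-like protein of membranes. Slc44a2-210, which starts at the 5′ edge of the gene, took 55.5%, 48.2% and 56.4% of the gene's TPM in TKO-2i and 17.6%, 10.6% and 13.5% in TKO-serum. Slc44a2-201, which starts 17130 bases further downstream, took 22.9%, 25.2% and 21.3% in TKO-2i and 56.0%, 62.4% and 60.4% in TKO-serum. The form from the distal start thus led in each TKO-2i library and the form from the proximal start in each TKO-serum library, with narrow ranges in both. In means, Slc44a2-210 went from 53.4% ± 4.48 (SD, n = 3) in TKO-2i to 13.9% ± 3.51 in TKO-serum. Its level was 10.4, 11.3 and 10.5 TPM in TKO-2i and 4.41, 2.95 and 3.77 TPM in TKO-serum. Slc44a2-201 moved the other way in level too, at 4.27, 5.88 and 3.95 TPM in TKO-2i and 14.1, 17.4 and 16.8 TPM in TKO-serum.

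The Slc44a2 first exons also carry different start codons, so the mRNAs encode different N-terminal ends, in coding sequences of 2112 bases (Slc44a2-210) and 2118 bases (Slc44a2-201). The coding parts of these first exons are shown because they are all that tells the proteins apart at this end. They are on the plus strand of GRCm38, at chr9:21320821-21320851 for Slc44a2-210 and chr9:21337926-21337962 for Slc44a2-201, with the start codon in capitals. Their lengths of 31 and 37 bases leave the same remainder of 1 after division by 3, so both join the shared exons in the same reading frame.
Slc44a2-210: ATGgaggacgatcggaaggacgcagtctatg
Slc44a2-201: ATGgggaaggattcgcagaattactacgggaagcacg

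Promoter windows of 300 bases, from 250 bases before a start to 50 after it, were taken from RefSeq (GRCm38.p6) and matched to 15 of the 22 transcript starts of the 11 genes within 100 bases. Over all 32817 such windows the median count of CpG dinucleotides was 7, with quartiles of 3 and 20, and the median observed-to-expected ratio of CpG was 0.383. CpG is the site that the missing methyltransferases would methylate, and it is marked by capitals in each promoter printed here. At Slc44a2 the window of the distal start (chr9:21320469-21320768, plus strand) held 16 CpG at a ratio of 0.593, and that of the proximal start (chr9:21337578-21337877, plus strand) held 7 at a ratio of 0.247. The start of the transcript that gains share in TKO-2i therefore lies in the more CpG-rich window of the pair.
Slc44a2-210 promoter: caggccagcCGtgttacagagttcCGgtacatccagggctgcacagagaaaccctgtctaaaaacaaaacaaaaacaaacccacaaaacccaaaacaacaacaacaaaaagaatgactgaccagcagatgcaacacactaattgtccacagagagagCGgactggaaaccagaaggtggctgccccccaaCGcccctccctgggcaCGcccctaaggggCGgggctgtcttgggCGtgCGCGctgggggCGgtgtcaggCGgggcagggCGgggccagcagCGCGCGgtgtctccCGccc
Slc44a2-201 promoter: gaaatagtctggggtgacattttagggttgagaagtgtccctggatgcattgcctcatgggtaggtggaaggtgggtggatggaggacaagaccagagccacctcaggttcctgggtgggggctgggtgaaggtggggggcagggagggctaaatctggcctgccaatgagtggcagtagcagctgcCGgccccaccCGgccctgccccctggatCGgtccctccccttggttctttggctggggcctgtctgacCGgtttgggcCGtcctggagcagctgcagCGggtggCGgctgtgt

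In the matched windows 7 motifs were searched as exact letters on both strands. The GC box of SP and KLF factors, GGGCGG, is present in 35.6% of all windows, and it occurred 4 times in the window of Slc44a2-210 and 0 times in that of Slc44a2-201. The TATA box, TATAAA, is present in 13.6% of all windows, the E-box CACGTG in 7.15%, and the ETS letters CCGGAAG in 8.86%. None of the matched windows held the TCF/LEF letters CTTTGAT (3.73% of all windows), the ESRRB letters TCAAGGTCA (0.424%) or the STAT3 letters TTCCNGGAA (1.15%, and able to overlap the ETS letters). A match is a description of the letters, not a binding site, and the lack of a match says nothing about a factor.

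C77080 (ENSMUSG00000050390, chr4:129219578-129261404, minus strand) has 3 alternative coding first exons in use. C77080-201, with the start furthest upstream of those, took 62.0%, 66.5% and 59.9% in TKO-2i and 25.9%, 19.3% and 29.8% in TKO-serum. C77080-202, which starts 9269 bases downstream, took 28.5%, 23.8% and 30.6% in TKO-2i and 59.4%, 57.0% and 50.2% in TKO-serum. C77080-203 made up most of the rest, with 7.55%, 8.19% and 7.79% in TKO-2i and 13.5%, 22.7% and 19.5% in TKO-serum. All 3 shares separate the groups, with the upstream form leading in TKO-2i and the middle form in TKO-serum. In level, C77080-201 stood at 28.9 ± 4.23 TPM (SD, n = 3) in TKO-2i and 6.07 ± 1.31 TPM in TKO-serum. C77080-202 stood at 12.6 ± 1.02 TPM and 13.5 ± 0.921 TPM, which overlap. Of the pair, only the upstream form thus separates the media in level, with a mean 4.76 times as high in TKO-2i.

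The coding parts of the C77080 first exons are shown since each gives the protein its own N-terminal end. They lie on the minus strand of GRCm38 at chr4:129248121-129248346 (226 bases, C77080-201), chr4:129239006-129239096 (91 bases, C77080-202) and chr4:129227727-129227781 (55 bases, C77080-203), and each leaves a remainder of 1 after division by 3. Start codons are in capitals. The whole coding sequence is 3210 bases in C77080-201 and 3075 bases in C77080-202.
C77080-201: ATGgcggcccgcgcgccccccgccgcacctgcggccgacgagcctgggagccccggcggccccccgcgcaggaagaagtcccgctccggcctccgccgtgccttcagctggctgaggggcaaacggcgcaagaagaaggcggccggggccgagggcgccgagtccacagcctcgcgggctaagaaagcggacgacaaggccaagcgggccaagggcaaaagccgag
C77080-202: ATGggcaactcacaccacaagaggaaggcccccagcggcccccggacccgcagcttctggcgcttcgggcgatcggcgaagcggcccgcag
C77080-203: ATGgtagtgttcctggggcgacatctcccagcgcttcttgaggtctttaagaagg

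Both C77080 promoter windows are rich in CpG. That of C77080-201 (chr4:129248394-129248693, minus strand) held 45 CpG at a ratio of 1.01 and 8 GC boxes, and that of C77080-202 (chr4:129239169-129239468, minus strand) held 20 CpG at a ratio of 0.526 and 4 GC boxes. The first of these windows is shown as the most CpG-dense of the 15, with CpG in capitals.
C77080-201 promoter: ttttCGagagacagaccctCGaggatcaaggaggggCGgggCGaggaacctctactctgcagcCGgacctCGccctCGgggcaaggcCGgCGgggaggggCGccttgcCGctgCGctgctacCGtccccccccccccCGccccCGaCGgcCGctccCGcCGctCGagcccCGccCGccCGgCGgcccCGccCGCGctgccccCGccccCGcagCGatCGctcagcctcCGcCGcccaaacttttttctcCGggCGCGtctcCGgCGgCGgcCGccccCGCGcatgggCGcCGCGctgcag

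Ckmt1 (ENSMUSG00000000308, chr2:121357714-121363737, plus strand) encodes the ubiquitous mitochondrial creatine kinase, which passes energy from ATP to creatine. Ckmt1-202 took 55.7%, 57.3% and 54.0% in TKO-2i and 8.88%, 25.6% and 22.4% in TKO-serum. Ckmt1-201, which starts 834 bases downstream, took 34.1%, 30.1% and 37.4% in TKO-2i and 86.6%, 63.6% and 66.2% in TKO-serum. The TKO-2i libraries lie within a few points of each other, and TKO-serum replicate 1 stands apart from the other TKO-serum libraries, further from TKO-2i than they are. Both mRNAs encode the same protein from a coding sequence of 1254 bases. The level of Ckmt1-202 was 19.95, 19.7 and 18.0 TPM in TKO-2i and 1.06, 3.51 and 3.09 TPM in TKO-serum, so its mean was 7.52 times as high in TKO-2i. Ckmt1-201 stood at 12.2, 10.3 and 12.5 TPM in TKO-2i and 10.4, 8.71 and 9.11 TPM in TKO-serum, and the groups overlap.

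At Ckmt1 the order of CpG content is the reverse of that at Slc44a2 and C77080. The window of Ckmt1-202 (chr2:121357526-121357825, plus strand) held 4 CpG at a ratio of 0.204, and that of Ckmt1-201 (chr2:121358360-121358659, plus strand) held 10 at a ratio of 0.392. The window of Ckmt1-202 has the letters TATAAA on the opposite strand, with its first base 31 bases before the start, and that of Ckmt1-201 has none of the motifs searched. Both are shown with CpG in capitals because they are the windows of the transcripts whose shares differ, and whether their use differs between the media was not measured.
Ckmt1-202 promoter: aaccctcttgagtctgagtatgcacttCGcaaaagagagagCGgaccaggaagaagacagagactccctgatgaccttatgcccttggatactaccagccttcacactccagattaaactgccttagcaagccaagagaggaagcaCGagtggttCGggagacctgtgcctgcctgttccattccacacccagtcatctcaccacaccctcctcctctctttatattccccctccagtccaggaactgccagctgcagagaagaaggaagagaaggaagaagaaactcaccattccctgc
Ckmt1-201 promoter: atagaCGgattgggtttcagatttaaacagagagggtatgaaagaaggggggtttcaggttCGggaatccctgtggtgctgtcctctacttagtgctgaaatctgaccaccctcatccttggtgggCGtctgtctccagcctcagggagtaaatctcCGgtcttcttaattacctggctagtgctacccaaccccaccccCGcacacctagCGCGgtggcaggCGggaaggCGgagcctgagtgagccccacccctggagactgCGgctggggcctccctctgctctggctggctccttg

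Atg14 (ENSMUSG00000037526, chr14:47540893-47570649, minus strand) encodes a subunit of the lipid kinase complex with Beclin 1 and Vps34 that starts autophagosome formation. Atg14-202 took 36.5%, 47.4% and 45.8% in TKO-2i and 10.4%, 13.9% and 11.2% in TKO-serum. Atg14-201, with a start 2215 bases further downstream, took 55.7%, 47.3% and 46.6% in TKO-2i and 86.3%, 83.2% and 86.5% in TKO-serum. The forms were near parity in TKO-2i replicates 2 and 3, Atg14-201 led in TKO-2i replicate 1, and it took most of the gene's TPM in every TKO-serum library. All 3450 bases of Atg14-201 are also in Atg14-202, which holds 279 bases more, nearly all of them upstream, and the coding sequence of 1476 bases is the same. The upstream form stood at 14.7 ± 2.27 TPM (SD, n = 3) in TKO-2i and 2.46 ± 0.480 TPM in TKO-serum. Atg14-201 stood at 17.0 ± 2.70 TPM and 17.6 ± 0.331 TPM, which overlap, so here too only the upstream form separates the media in level. The window of Atg14-201 held 13 CpG, 2 GC boxes and an E-box, and no window matched the start of Atg14-202.

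Morf4l2 (ENSMUSG00000031422, chrX:136732942-136743690, minus strand) encodes an MRG-family chromatin protein and is the only X-linked gene of the 11. Morf4l2-202 took 83.2%, 75.3% and 77.0% in TKO-2i and 49.7%, 46.0% and 46.0% in TKO-serum. Morf4l2-204, which starts 2338 bases upstream, took 6.23%, 7.54% and 7.85% in TKO-2i and 34.9%, 38.8% and 36.2% in TKO-serum. The libraries of each medium lie close together, and the downstream form leads in both media. The larger movement in level is that of the upstream form, at 15.9, 21.6 and 20.3 TPM in TKO-2i and 115, 140 and 120 TPM in TKO-serum, a mean 6.49 times as high in TKO-serum. Morf4l2-202 stood at 213, 216 and 199 TPM in TKO-2i and 164, 166 and 153 TPM in TKO-serum. The coding sequence of 864 bases is the same in both, and the models differ in the first exon of the leader and by 11 bases at the 3′ end. Morf4l2 lies near the threshold: with transcripts summed by start its difference was 29.8 percentage points, and without TKO-2i replicate 1 it no longer met the rule.

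The promoter windows of Morf4l2 hold like numbers of CpG, 13 at a ratio of 0.578 for Morf4l2-202 (chrX:136741303-136741602, minus strand) and 12 at a ratio of 0.706 for Morf4l2-204 (chrX:136743637-136743936, minus strand). The GC box occurred 2 times in the former and 1 time in the latter. Over the genes with windows matched at both starts, the gaining transcript had the higher CpG count in Slc44a2, C77080, Morf4l2 and Rps24 (21 and 14, in windows that overlap) and the lower in Ckmt1, and in Bag1 both starts share a window. No test was made of this order. The Morf4l2 windows are shown, with CpG in capitals, as the pair with the most alike CpG counts among the genes whose starts have different windows.
Morf4l2-202 promoter: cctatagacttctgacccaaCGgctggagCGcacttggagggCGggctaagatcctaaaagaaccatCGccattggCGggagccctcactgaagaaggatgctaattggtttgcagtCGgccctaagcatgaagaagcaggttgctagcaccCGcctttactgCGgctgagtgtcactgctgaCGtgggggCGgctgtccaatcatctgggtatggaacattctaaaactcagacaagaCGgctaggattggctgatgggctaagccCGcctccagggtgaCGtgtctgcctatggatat
Morf4l2-204 promoter: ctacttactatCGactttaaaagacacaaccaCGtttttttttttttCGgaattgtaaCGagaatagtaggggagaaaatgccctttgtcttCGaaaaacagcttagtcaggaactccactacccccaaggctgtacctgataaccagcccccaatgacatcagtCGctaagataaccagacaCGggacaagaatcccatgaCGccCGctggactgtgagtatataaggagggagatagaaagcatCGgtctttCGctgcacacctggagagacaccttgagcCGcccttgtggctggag

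Krt42 (ENSMUSG00000053654, chr11:100262882-100269871, minus strand) encodes a type I keratin of the intermediate filaments and has only 2 annotated transcripts. The coding Krt42-201 took 88.3%, 84.3% and 84.5% in TKO-2i and 51.0%, 49.2% and 47.9% in TKO-serum, and the retained-intron transcript Krt42-202 took the rest. In 2i the coding mRNA therefore makes up most of the output, whereas in serum the forms are near parity in every library. The coding mRNA stood at 23.6, 24.0 and 20.8 TPM in TKO-2i and 10.4, 8.37 and 8.74 TPM in TKO-serum. Krt42-202, which starts 3893 bases further downstream, stood at 3.13, 4.46 and 3.80 TPM in TKO-2i and 9.98, 8.63 and 9.49 TPM in TKO-serum. Both levels separate the media and move in opposite directions. With shares of estimated counts in place of TPM the difference was 29.0 percentage points, and the gene did not meet the rule.

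Rps24 (ENSMUSG00000025290, chr14:24487125-24496959, plus strand) encodes a protein of the small ribosomal subunit and is known for very short alternative exons at its 3′ end. It is by far the most abundant of the 11 genes, at 3660 ± 166 TPM (SD, n = 3) in TKO-2i and 3702 ± 220 TPM in TKO-serum. Rps24-202 took 69.6%, 72.1% and 68.0% in TKO-2i and 32.9%, 34.4% and 32.9% in TKO-serum. Rps24-201 took 25.01%, 21.9% and 26.4% in TKO-2i and 57.8%, 55.7% and 57.7% in TKO-serum. Between 7933 and 39325 estimated counts stand behind each of these values, the libraries of a group differ by only a few points, and the leading form swaps. Rps24-202 stood at 2637, 2505 and 2527 TPM in TKO-2i and 1295, 1209 and 1205 TPM in TKO-serum. Rps24-201 stood at 948, 761 and 980 TPM in TKO-2i and 2278, 1954 and 2109 TPM in TKO-serum, so the pair exchanged within a nearly equal total.

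The Rps24 forms encode the same protein, from a coding sequence of 390 bases, and differ at their 3′ ends and by 37 bases at the start, where Rps24-201 begins further upstream. Rps24-201 ends in an annotated exon of 3 bases (chr14:24495430-24495432), the stop codon, so that this model has no 3′ untranslated sequence. Rps24-202 continues through an exon of 20 bases (chr14:24495430-24495449) into a last exon of 71 bases (chr14:24495775-24495845). Rps24-210 skips the exon of 20 bases, uses the later last exon in a longer version of 1185 bases, and so has a different stop codon and a coding sequence of 399 bases. Its share was small but separated the media without overlap, at 2.31%, 2.29% and 2.23% in TKO-2i and 5.46%, 5.65% and 5.38% in TKO-serum. With transcripts summed by start the Rps24 difference was -0.0129 percentage points, which follows from the sum, since both forms fall in a start region that holds 99.8% of the gene's TPM in either medium. The support level of Rps24-201 in the annotation is 5, the weakest grade, and that of Rps24-202 is 1. Of the 468 bases of Rps24-201, 431 are also in Rps24-202, and Rps24-201 has no junction of its own. The large counts are therefore estimates of how reads divide between overlapping models.

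For the remaining genes, Slc25a51, Bag1 and Zbtb18, the annotated models are harder to tell apart or the counts are low. Slc25a51 (ENSMUSG00000045973, chr4:45395923-45408766, minus strand) encodes the carrier that brings NAD into mitochondria and had the largest share difference of the 11 genes, 53.5 percentage points. Slc25a51-201 took 75.9%, 77.7% and 29.6% in TKO-2i and 0%, 4.09% and 18.6% in TKO-serum. Slc25a51-202 took 0%, 0% and 39.8% in TKO-2i and 61.8%, 58.2% and 47.6% in TKO-serum. TKO-2i replicate 3 stands between its own group and TKO-serum in both, and the spread within TKO-2i, an SD of 27.2 points for Slc25a51-201, is wide. The transcripts share every junction and differ only by 5 bases at the start, all 4433 bases of Slc25a51-201 being part of Slc25a51-202, although the annotation gives them coding sequences of 945 and 894 bases. Summed over the start region, which joins them with 3 further transcripts, the mean was 95.5% in TKO-2i and 95.8% in TKO-serum, a difference of -0.258 percentage points. The pair summed took 74.3% in TKO-2i and 63.4% in TKO-serum, a difference of 10.9 percentage points without overlap, so most of the 53.5 points lies in how estimated counts are divided between these nearly identical models. For that reason no counting limit is given for the values of 0%. Without a single library the difference ranged from 45.2 to 69.2 percentage points and the gene met the rule each time. It did not meet the rule where each same-numbered pair of libraries had to differ by 30 percentage points, nor with transcripts summed by start.

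Bag1 (ENSMUSG00000028416, chr4:40936398-40948294, minus strand) encodes a co-chaperone of Hsp70 that is known to be made in several forms from alternative start codons. Bag1-202 took 87.9%, 98.5% and 75.1% in TKO-2i and 73.0%, 62.8% and 34.5% in TKO-serum. Bag1-201 took 7.13%, 0% and 13.3% in TKO-2i and 13.4%, 18.0% and 57.7% in TKO-serum. The groups nearly touch, with TKO-2i replicate 3 and TKO-serum replicate 1 side by side and TKO-serum replicate 3 far below the rest in Bag1-202. The starts lie 38 bases apart, the junctions are the same, and all 1295 bases of Bag1-201 are inside Bag1-202. The annotated coding sequences nonetheless differ, with 657 bases in Bag1-202 and 1065 in Bag1-201. The pair summed took 94.0% in TKO-2i and 86.5% in TKO-serum, a difference of 7.55 percentage points with overlap between libraries, so most of the difference lies in the division between overlapping models. With shares of estimated counts Bag1 did not meet the rule, and with transcripts summed by start it could not, since all 4 of its transcripts share a start region. Without TKO-2i replicate 2 or without TKO-serum replicate 3 it did not meet the rule, and the difference without a single library ranged from 19.3 to 38.6 percentage points.

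Zbtb18 (ENSMUSG00000063659, chr1:177442351-177450764, plus strand) encodes a zinc-finger repressor with a BTB domain. Its gaining transcript, ENSMUST00000194269, is a non-coding model of 100 bases, with shares of 43.9%, 56.5% and 32.7% in TKO-2i and 0%, 18.0% and 18.0% in TKO-serum. Behind these shares stand only 3, 4 and 2 estimated counts in TKO-2i and 0, 1 and 1 in TKO-serum, which TPM multiplies because the model is so short. The sums of 9 and 2 counts have exact Poisson 95% intervals of 4.12 to 17.1 and 0.242 to 7.22, which cover counting error only and are no test of the difference, since the same values chose the gene. With shares of estimated counts the difference was 0.365 percentage points, and the gene also left the rule without TKO-2i replicate 2 or without TKO-serum replicate 1. A minimum of 20 estimated counts on average, an alternative chosen after seeing the data, removes Zbtb18 and leaves the other 10 genes.

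Around the threshold, Bag1 (30.4 percentage points), Morf4l2 (31.3) and Zbtb18 (32.4) lie just inside. Just outside lie Pnpla8-202, with a mean share of 39.2% in TKO-2i and 68.9% in TKO-serum, Zfp981-203, with 63.5% and 35.3%, and Fetub-201, with 12.6% and 40.8%. At a difference of 20 percentage points, 66 genes met the rule. Allowing overlap, 13 genes reached 30 percentage points, and the added genes are Prpf6, in which TKO-serum replicate 1 stands with the TKO-2i libraries, and Osbpl11, in which the TKO-2i libraries spread from 6.54% to 70.7%.

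The summed level of the gene comes from the same libraries as the share and is not independent of it. The test of edgeR uses summed estimated counts, which depend on the length of the transcripts, so its fold change can move with the mix, and TPM or the fit with length-scaled counts is given beside it. All 11 genes passed the filter on low counts, and in the quasi-likelihood test of edgeR, adjusted by Benjamini-Hochberg over 18177 genes, 7 were higher in TKO-2i, 2 were lower and 2 did not pass. Among all genes tested 62.5% passed, 31.9% higher and 30.6% lower in TKO-2i, and since the genes were chosen on the same contrast nothing is read from the comparison. The median log2 fold change was 0.47 over the 11 genes and 0.01 over all genes tested.

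Of the switching genes, Ckmt1 had the largest fold change in summed level. It stood at 35.8, 34.3 and 33.3 TPM in TKO-2i and 12.0, 13.7 and 13.8 TPM in TKO-serum. Every TKO-2i library lies far above every TKO-serum library, and edgeR's quasi-likelihood test gave a log2 fold change of 1.46 (SE 0.08, adjusted p = 1.58e-06). C77080 stood at 41.8, 50.7 and 45.0 TPM in TKO-2i and 23.5, 24.7 and 24.7 TPM in TKO-serum, with a log2 fold change of 1.03 (SE 0.05, adjusted p = 1.1e-06 in edgeR). In these genes the total and the mix differ together. Krt42 stood at 26.7, 28.5 and 24.6 TPM in TKO-2i and 20.3, 17.0 and 18.2 TPM in TKO-serum, with a log2 fold change of 0.90 on counts and 0.61 with length-scaled counts. Atg14 (log2 fold change 0.79, and 0.81 with length-scaled counts) and Bag1 (0.47 and 0.43) differed little between these fits. Slc25a51 stood at 14.5, 17.8 and 14.4 TPM in TKO-2i and 15.0, 16.1 and 14.5 TPM in TKO-serum, which overlap. Its log2 fold change was 0.28 on counts (adjusted p = 0.0097 in edgeR) and 0.12 with length-scaled counts, and the call was lost there and in limma.

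Slc44a2 and Morf4l2 were the genes lower in TKO-2i. Slc44a2 stood at 18.7, 23.4 and 18.5 TPM in TKO-2i and 25.1, 27.9 and 27.9 TPM in TKO-serum, without overlap, with a log2 fold change of -0.29 (SE 0.05, adjusted p = 0.000988 in edgeR). Morf4l2 stood at 256, 286 and 258 TPM in TKO-2i and 330, 361 and 332 TPM in TKO-serum, with a log2 fold change of -0.24 (SE 0.05, adjusted p = 0.00236 in edgeR). In both genes the transcript that loses share in TKO-2i had a higher level in every TKO-serum library. Rps24 (log2 fold change 0.05, SE 0.08, adjusted p = 0.588 in edgeR) and Zbtb18 (0.05, SE 0.07, adjusted p = 0.564) did not pass the threshold. Zbtb18 stood at 18.2, 21.9 and 17.1 TPM in TKO-2i and 10.7, 13.2 and 16.2 TPM in TKO-serum, and it passed with length-scaled counts, at a log2 fold change of 0.60, and in limma. Of this TPM, the 100-base ENSMUST00000194269 held 8.01, 12.4 and 5.58 in TKO-2i and 0, 2.38 and 2.91 in TKO-serum. Those values rest on sums of 9 and 2 estimated counts. Without that model the summed TPM of Zbtb18 is not higher in TKO-2i, and TKO-2i replicate 2 falls below 10 TPM.

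None of the 11 genes is itself on a list of RNA-processing factors, and the levels of such factors were read on the same gene-level scale. Of 104 listed genes 101 were tested, with 33 higher in TKO-2i, 28 lower and 40 not past the threshold of edgeR's test, and a median log2 fold change of 0.03 beside 0.01 for all genes tested. Rbfox1 and Rbm24 were too low to test. The listed symbol Qki matched no protein-coding gene with a transcript in the files, so its level was not read. Over all genes tested, 31.9% were higher, 30.6% lower and 62.5% past the threshold in either direction, and the counts of the families are to be read beside these shares. In limma on log2 TPM the lists had 16 higher in place of 33 and 32 lower in place of 28, and all genes tested had 4209 higher in place of 5804 and 5839 lower in place of 5557. The 43 tested splicing regulators divided into 9 higher, 20 lower and 14 not past, with a median of -0.13. Of the 11 SR proteins 3 were higher, 0 lower and 8 not past, with a median of 0.11, and of the 18 hnRNP proteins 6 were higher, 6 lower and 6 not past, with a median of -0.08. Genes past the threshold lie on both sides of 0 among the splicing regulators and hnRNPs. TKO-2i replicate 2 stands apart from its group: the mean chi-square per gene, for which counting alone gives 1, was 45.0 against replicate 1 and 27.4 against replicate 3, beside 7.08 between replicates 1 and 3. In TKO-serum it was 16.0, 4.69 and 11.03 for replicates 1 and 2, 1 and 3, and 2 and 3. The summed TPM of the splicing regulators was 2318, 2792 and 2430 in TKO-2i and 2617, 2949 and 2808 in TKO-serum, and that of the hnRNPs was 9045, 10219 and 9235 and 9516, 10445 and 9849, so in both lists TKO-2i replicate 2 lies among the TKO-serum libraries. Without it the splicing regulators had 9 higher and 22 lower, the hnRNPs 6 and 7, and the SR proteins 5 and 0. Of 19 cleavage and polyadenylation factors 10 were higher, 2 lower and 7 not past (median 0.15), and of 10 factors of nonsense-mediated decay 5 were higher, 0 lower and 5 not past (median 0.28). The summed TPM of the former was 1206, 1408 and 1237 in TKO-2i and 1236, 1351 and 1279 in TKO-serum. That of the latter was 375, 456 and 394 in TKO-2i and 349, 385 and 383 in TKO-serum. In both lists the groups overlap and TKO-2i replicate 2 is the highest library.

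**Figure D4:**
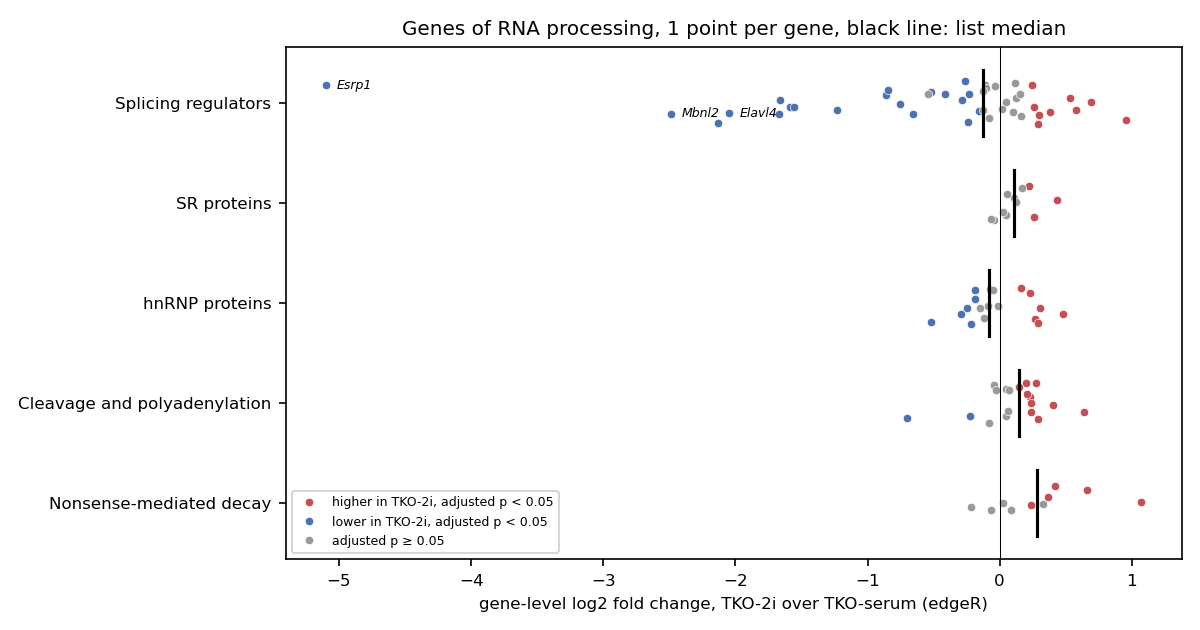
Gene-level log2 fold change, TKO-2i over TKO-serum, of the tested genes of each RNA-processing list, with 1 point per gene coloured by its call in edgeR's test and a black line at the list's median. The list medians run from -0.13 to 0.28, and Esrp1 at -5.09 stands furthest from 0.

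The widest difference on these lists was that of Esrp1, an epithelial regulator of splicing, at 0.684, 0.806 and 0.624 TPM in TKO-2i and 24.6, 27.5 and 26.0 TPM in TKO-serum. The TKO-2i cultures thus have very little Esrp1 mRNA, and edgeR's quasi-likelihood test gave a log2 fold change of -5.09 (SE 0.08, adjusted p = 5.8e-09). Mbnl2, of the muscleblind family of splicing factors, stood at 1.35, 1.45 and 1.16 TPM in TKO-2i and 8.92, 8.99 and 8.35 TPM in TKO-serum, with a log2 fold change of -2.48 (SE 0.08, adjusted p = 1.14e-07 in edgeR). Elavl4, an RNA-binding protein best known from neurons, was lower as well, with a log2 fold change of -2.05. The SR proteins with the largest differences were Srsf2 (log2 fold change 0.44), Srsf1 (0.26) and Srsf5 (0.22), all higher in TKO-2i. Among hnRNP proteins they were Hnrnph3 (-0.52), Hnrnpf (0.48) and Pcbp1 (0.30). Among 3′ end factors Fip1l1 was lower (-0.70) and Pcf11 (0.64) and Sympk (0.40) were higher, and among decay factors Smg9 (1.07), Smg6 (0.66) and Smg8 (0.42) were higher. Whether any of these factors has a part in the transcript shares of the 11 genes was not tested.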

How the data were processed

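The authors deposited 1 transcript quantification file per library in the layout of Salmon, with TPM and expected counts (estimated counts that need not be whole) for 136288 transcripts; the program, its version and its index are not stated for these files, and per the labels the genome build is mm10. Of these transcripts 136100 matched GENCODE mouse M21 (GRCm38), and the 188 others held at most 0.0643% of a library's counts. Shares are a transcript's TPM over the summed TPM of its gene. For gene-level tests, expected counts were summed per gene and rounded, filtered with filterByExpr, scaled by TMM and tested with edgeR 4.0.16 (R 4.3.3), with Benjamini-Hochberg adjustment over 18177 genes and calls at 0.05; SE is the log2 fold change over the root of F. The 3 TKO-2i libraries were compared with the 3 TKO-serum libraries, with no covariate. Library totals were between 38274042 and 51932739 counts, and intervals cover counting error only. The switching genes and the gene lists were chosen with earlier results of these data known. Named genes are 10 of the 11 switching genes (the remaining gene is counted and not reported here), the nearest genes on each side of the threshold, the markers, and in each RNA-processing list the 3 largest differences past the threshold with a mean CPM of at least 1. The genes that reach the share difference with overlap were named after their values were seen. Alternatives were other levels and share differences, shares of counts, sums by start or coding sequence, other transcript classes, DESeq2 1.42.0 as the test or for size factors, limma 3.58.1, other filters, length-scaled counts, each library left out and a block by replicate number. Tables and figures used Python 3.11.15, pandas 2.3.3, numpy 2.4.6, scipy 1.17.1 and matplotlib 3.10.9, and the test was checked on simulated data.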

Additional observations from a re-analysis of the deposited data

How the results depend on the processing

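The count of 11 switching genes became 5 with a minimum level of 20 TPM, 66 with a share difference of 20 percentage points, 2 with 40, 7 with transcripts of the same coding sequence summed, and 7 where each same-numbered pair of libraries had to differ by 30, which lost Bag1, Morf4l2, Slc25a51 and Zbtb18. It lay between 9 and 16 under the other alternatives, and between 12 and 16 without a single library. The genes lost without TKO-2i replicate 1 (Morf4l2), TKO-2i replicate 2 (Bag1 and Zbtb18), TKO-serum replicate 1 (Zbtb18) and TKO-serum replicate 3 (Bag1) are those nearest the rule's limits. With 40 percentage points, 1 pair had different starts, 0 had different ends alone and 1 had neither, and with a distance of 500 bases 0 pairs had different ends alone and 4 had neither.

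With transcripts summed by start, the share differences of Slc25a51 and Rps24 reversed to -0.258 and -0.013 percentage points, since their pairs share a start region. The gene-level log2 fold change of Rps24, which passed no threshold, reversed to -0.016 in limma with a pseudocount of 1 and of 0.1, and to -0.011 without TKO-2i replicate 1, with values up to 0.135 without another library. The gene-level log2 fold change of Col1a1, also not past the threshold, reversed to 0.156 with length-scaled counts, 0.033 and 0.059 in limma with a pseudocount of 1 and of 0.1, 0.050 without TKO-2i replicate 2 and 0.032 without TKO-serum replicate 2, with values down to -0.191 without another library. The count of RNA-processing genes higher in TKO-2i was 16 in limma with either pseudocount, beside 33, where the count over all genes also fell, from 5804 to 4209 with a pseudocount of 1, and the cause was not tested. In all, 640 of 670 log2 fold changes of named genes and 81 of 88 share differences were counted as kept. These kept their direction and their side of the threshold or moved by less than 1 SD. For shares, this SD is the gene's own spread within a group, so genes that spread widely could move far and still count. Bag1 was counted as kept at 19.3 percentage points without TKO-serum replicate 3, and Zbtb18 without TKO-2i replicate 2, although neither met the rule there. The same shares chose the genes, so nothing is read from the 81 about how stable the differences are.

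Genes past the gene-level threshold numbered between 9804 and 12568 over the alternatives, and 12539 with replicate number as a block, of which 11289 had passed in the same direction without it. The block gave 73 RNA-processing genes, 39 higher and 34 lower. The deviations of same-numbered libraries from their group means correlated across genes at 0.242, 0.329 and 0.014 (Pearson's r). Pairs with different numbers lay between -0.326 and 0.123, so the largest values belong to same-numbered pairs. Genes are not independent replicates, and whether same-numbered libraries belong together was not tested. The main test assumed no pairing. Low counts, as behind Zbtb18, and models that overlap, as in Slc25a51, Bag1, Rps24 and Atg14, limit what the depth can show.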
